A study of Mus musculus with 6 samples.

Results

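The genes described here are 51 that copy DNA and repackage it into chromatin: the origin recognition complex, the licensing factors, the MCM helicase and the proteins that start it, the replicative polymerases and primase, the sliding clamp and its loader, the single-strand binding complex, the enzymes that join lagging-strand fragments, ribonucleotide reductase, the histone chaperones of the fork, and the proteins that carry DNA methylation across it. They were taken by name from the gene column of the deposited table, and all 51 were found among its 24054 genes. All 51 also passed the filter on low counts, among 10975 genes that did. Total RNA was sequenced from the mouse line TIBx, labelled BNL 1ME A.7R.1 and given a liver origin, as 3 libraries of the parental line (genotype WT) and 3 of the line TIBxDNAJ-PKAc (genotype DNAJ-PKAc), replicates A, B and C in each group. Values listed by library stand in the order A, B, C. The fusion kinase DNAJ-PKAc joins the first part of DNAJB1, a co-chaperone, to protein kinase A's catalytic subunit, and it is the hallmark of fibrolamellar liver carcinoma. Both lines were grown in the same serum-supplemented DMEM with added glutamine. There is 1 line per genotype, and the labels do not say how the fusion was made, whether the line is a clone, or whether replicates were separate cultures. A difference between the lines and an effect of the fusion therefore cannot be told apart, and each p-value reflects only how far these libraries vary, which may be technical spread.

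Libraries held 8095549 to 9969590 expected counts. Prkaca, which encodes the kinase part of the fusion, was at 63.6 to 87.6 CPM (counts per 1000000 counts of a TMM-scaled library) in WT and at 95.7 to 131 CPM in DNAJ-PKAc, with no overlap between groups (log2 0.59, edgeR adjusted p = 0.154). DNAJ-PKAc A and B were close to each other, and DNAJ-PKAc C stood apart from them. Hepatocyte markers were nearly absent: of 12 such genes 10 were at 0 counts in all 6 libraries, albumin and Hnf4a included, and the list summed to at most 0.117 CPM. Fibroblast and mesenchymal markers summed to 25242 to 26516 CPM in WT, much of it from Vim (12025 to 14225 CPM) and Col1a2 (5910 to 7954 CPM). Thy1 was at 0 throughout, and Lum was at most at 0.244 CPM in any library. Leukocyte markers summed to at most 5.19 CPM and endothelial markers to at most 2.32 CPM in any library.

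Replication is licensed in G1, when the origin recognition complex, CDC6 and CDT1 load the MCM ring onto DNA, and it fires in S phase, when CDC7-DBF4 kinase, CDC45 and the GINS complex turn that ring into a moving helicase. DNA polymerase alpha with primase starts each strand, polymerases delta and epsilon extend it on the PCNA clamp, and ASF1 and CAF-1 hand new histones to the daughter strands. Many of these genes are transcribed at the G1 to S boundary under E2F transcription factors, so their mRNA is abundant in cycling cells and scarce in resting ones, while others are expressed more evenly through the cycle.

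Because most of these genes had the same order of libraries, their promoters were searched for the E2F element, on both strands, as TTTCCCGC, TTTCGCGC, TTTGCCGC or TTTGGCGC in windows of 250 bases before to 50 bases after each RefSeq start site (GRCm38.p6, the assembly of mm10). Of the 43 genes with a window, 17 held an element (39.5%), against 5.05% of 8321 genes that were tested and had a window, and 2.60% of all 27025 genes of the table. A gene with several start sites has several windows, and counted by window the shares were 30.9% and 2.26%. The element was found in 4 of 6 MCM genes with a window, in both Cdc6 and Cdt1, and in 0 of 4 histone chaperone genes. Sequences are shown for licensing, MCM and chaperone genes with an element just upstream of the start site, in a stretch free of GENCODE exons. Cdt1, Mcm3 and Mcm7 held an element in the window but had no such stretch long enough to print. The stretches of Cdc6, Mcm5 and Mcm6 are given. They run 5′ to 3′ on the gene's strand and end at the last base before the start site, with the elements in capitals: chr11:98908001-98908150 (plus strand), chr8:75109359-75109508 (plus strand) and chr1:128359706-128359855 (minus strand).
Cdc6: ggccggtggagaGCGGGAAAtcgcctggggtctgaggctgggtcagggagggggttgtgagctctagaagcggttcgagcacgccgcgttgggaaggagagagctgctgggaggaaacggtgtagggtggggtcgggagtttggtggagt
Mcm5: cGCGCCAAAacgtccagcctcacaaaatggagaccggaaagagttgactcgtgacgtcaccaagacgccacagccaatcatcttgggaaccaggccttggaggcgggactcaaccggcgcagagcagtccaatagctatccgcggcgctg
Mcm6: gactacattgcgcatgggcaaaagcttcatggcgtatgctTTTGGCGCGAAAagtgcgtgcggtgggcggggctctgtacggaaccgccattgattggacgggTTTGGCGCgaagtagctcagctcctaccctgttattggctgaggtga
The first base of the element in the stretch lay 138 bases upstream of the start in Cdc6 and 149 in Mcm5, both read on the opposite strand. The whole window of Mcm5 held 2 matches, of which 1 lies in the stretch shown. Mcm6 held 3 matches, starting 110, 106 and 47 bases upstream, of which the first and second overlap on opposite strands. The RefSeq gene span begins before the start site used for Cdc6 (chr11:98907709) and for Mcm5 (chr8:75109468). The distances of these genes are therefore measured to a later start. A CCAAT box (CCAAT on either strand) was found in 65.1% of the member genes, 43.7% of the tested genes and 41.1% of all genes. A CHR element (TTTGAA on either strand) was found in 20.9%, 13.9% and 20.2%. A match is a string of letters and was not tested as a binding site.

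The replication genes split the DNAJ-PKAc libraries. Summed over the 51 genes, they came to 1693, 1551 and 1827 CPM across WT, to 3862 and 3879.6 CPM in the fusion libraries A and B and to 1129 CPM in C. A and B were thus high and C was below every WT library. Relative to the WT mean, the median gene was at log2 1.27 and 1.22 in A and B and at -0.71 in C, while the WT libraries lay at -0.011, -0.24 and 0.13 and the median over all genes tested lay between -0.015 and 0.017 in every library. A and B differed from each other by 1.00- to 1.29-fold per gene. In bulk RNA, fewer cells in S phase and less of these RNAs per cell cannot be told apart.

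With all 6 libraries, 0 of 51 genes rose and 0 fell in DNAJ-PKAc (edgeR's quasi-likelihood test with Benjamini-Hochberg adjustment, threshold 0.05), where 1.37% of all genes tested rose and 2.14% fell. At an unadjusted edgeR p under 0.05 there were 11 of the 51, and 2363 of all 10975 genes tested. By limma-voom 0 were called, and DESeq2 called 2 as higher, Chaf1b and Rrm1. Over all 10975 genes tested, DESeq2 called 348 higher and 626 lower. The fitted log2 difference was above 0 for 50 of 51, with a median of 0.85 against 0.046 over all genes tested, and adjusted p ran from 0.111 to 0.968 by edgeR. Leaving out C was chosen with its levels known, so that fit describes libraries A and B against the 3 WT libraries. Without DNAJ-PKAc C, 43 of 51 rose and 0 fell, beside 14.3% and 11.0% of all genes, and the median was 1.26 against 0.0030. DNAJ-PKAc A and B were above every WT library for 49 genes (32.5% of all genes tested), C was below every WT library for 37 (29.5%), and both held for 36 (7.88%). All 3 DNAJ-PKAc libraries were above all 3 WT libraries for 2 genes, Orc5 and Asf1a, against 15.8% of all genes tested.

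**Figure D1:**
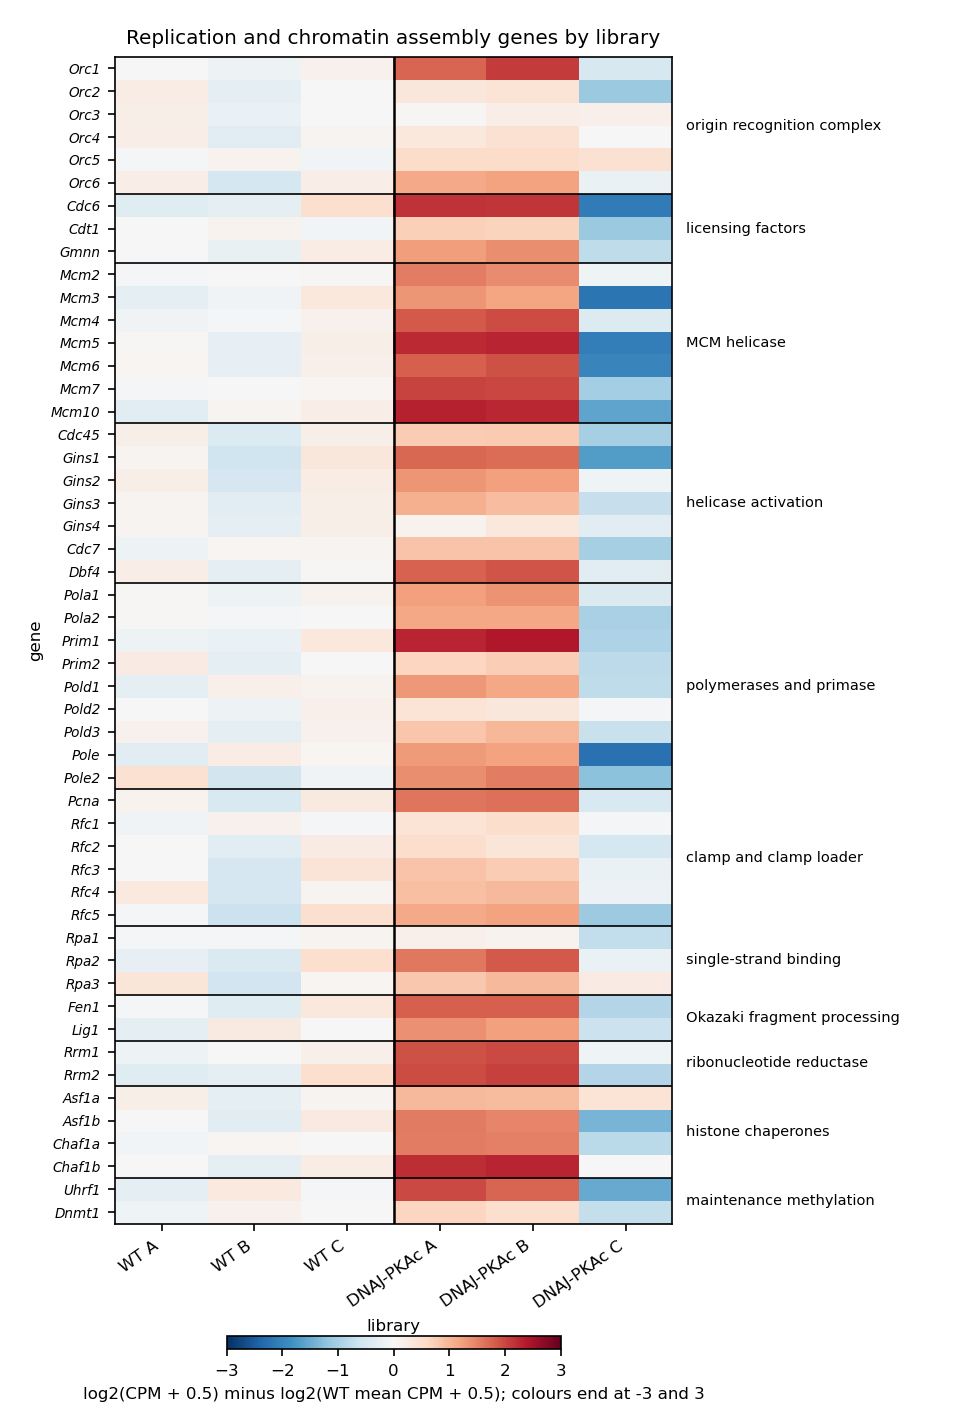
Level of each of the 51 genes (rows, grouped by role) in each library (columns), as the log2 difference of CPM from the WT mean, red higher and blue lower. The columns of DNAJ-PKAc A and B are red for most genes (median 1.27 and 1.22), and that of C is mostly blue (median -0.71).

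The fits with and without DNAJ-PKAc C were set side by side for every gene. The change was in the spread more than in the sign: for Mcm7, which encodes an MCM ring subunit, the SE went from 0.67 to 0.12 and the log2 difference from 1.52 to 2.02. The genes that did not pass without C were Orc2, Orc3, Orc4, Gins4, Pold2, Rfc2, Rfc3 and Rpa1. Their fitted log2 differences in that fit ran from 0.12 (Orc3) to 0.82 (Rfc3). Prim1, the primase catalytic subunit gene, had the largest at 2.43. Some of these genes share exonic bases with a neighbouring gene, and their counts are uncertain to that extent: Mcm7 shares 13%, Orc1 11.9%, Pole2 14.4%, Orc4 9.48%, Orc6 7.14% and Lig1 6.17%. Orc5, Cdc45, Pole and Rpa1 share 0.856% to 4.28%, and the larger overlaps are given with each gene.

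**Figure D2:**
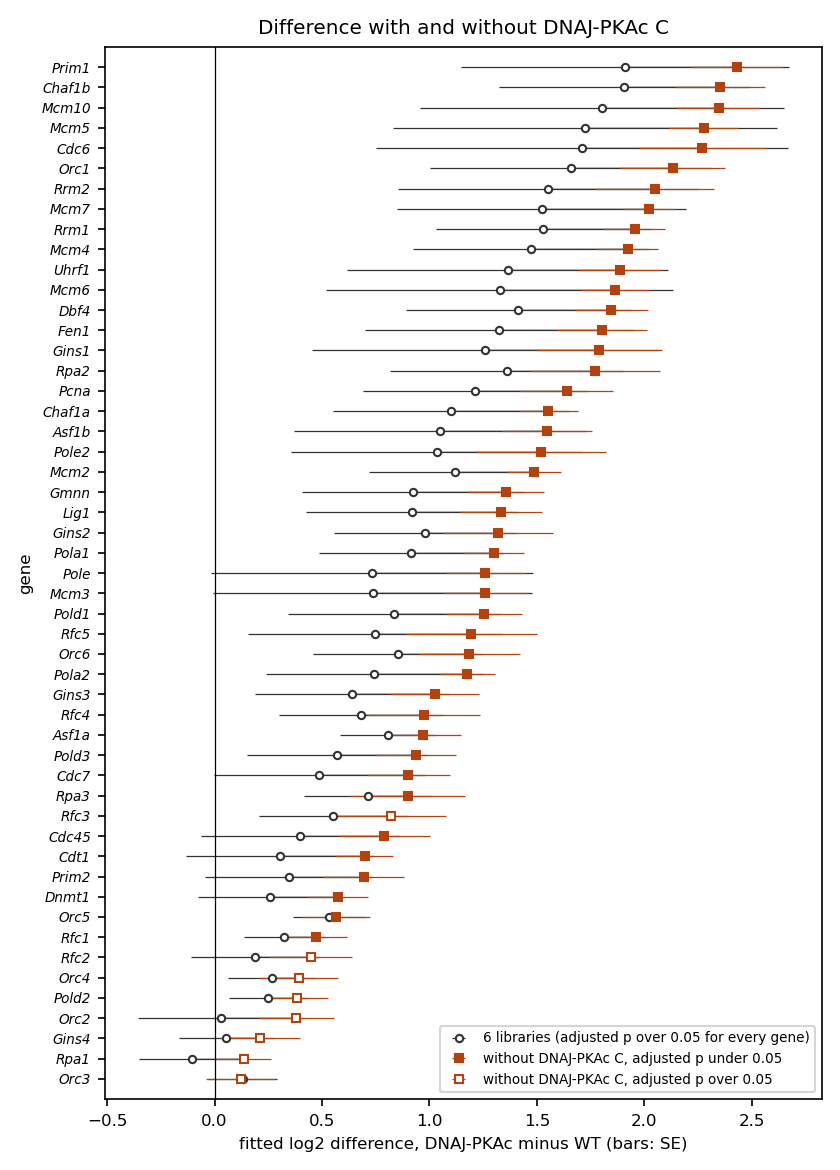
Fitted log2 difference between DNAJ-PKAc and WT for each gene (points, with SE as bars) over 6 libraries (open circles) and without DNAJ-PKAc C (squares, filled where adjusted p was under 0.05). No circle passed the test, 43 of 51 squares did, and the SE bars are shorter without C for most genes.

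The 6 origin recognition genes did not share 1 pattern. Without DNAJ-PKAc C, 3 of 6 rose (14.3% of all genes tested did): Orc1, Orc5 and Orc6. Orc1, the subunit whose level is known to oscillate through the cell cycle, was at 2.41, 2.10 and 2.65 CPM across WT and 9.21, 11.9 and 1.58 CPM across DNAJ-PKAc, from only 13 to 96 counts per library. The groups overlapped, since C lay below WT and A and B lay 4.41-fold above the WT mean. Over 6 libraries the difference of Orc1 was log2 1.66 (SE 0.65, edgeR adjusted p = 0.210), and leaving out C gave log2 2.13 (SE 0.24, edgeR adjusted p = 0.00211). Orc5, an ATP-binding subunit, behaved otherwise: it was at 14.7, 16.2 and 14.1 CPM across WT and 22.3, 22.1 and 20.7 CPM across DNAJ-PKAc. All 3 DNAJ-PKAc libraries lay above all 3 WT libraries by a small step. The fit for Orc5 gave log2 0.53 (SE 0.17, edgeR adjusted p = 0.143), and with C set aside log2 0.57 (SE 0.16, edgeR adjusted p = 0.0416). Orc2, a core subunit, was at 81.5, 57.3 and 70.0 CPM across WT, 88.0 and 93.1 CPM in the fusion libraries A and B and 32.0 CPM in C, so that A and B were only 1.3-fold above the WT mean while C was at 0.460 of it. Orc2 thus had a difference of log2 0.030 (SE 0.39, edgeR adjusted p = 0.968) in the full fit and of log2 0.38 (SE 0.17, edgeR adjusted p = 0.151) in the fit that leaves out C. Its exons share 24.0% of their bases with Nif3l1 on the opposite strand, and whether counting used strand is not known here, so its counts are uncertain. Orc3 and Orc4, both core subunits, had A and B at 1.09 and 1.31 times the WT mean and C at 1.11 and 0.989 times, with C inside the WT range for each. Orc3 was the only gene of the 51 for which A and B were not both above C. Per kilobase of the longest transcript, Orc1 was the scarcest subunit in WT at 0.792 RPKM (CPM per kilobase) and Orc3 the most abundant at 22.9.

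The licensing factors included Cdc6, the gene with the widest range between DNAJ-PKAc libraries. CDC6 and CDT1 load the MCM ring, and geminin, encoded by Gmnn, blocks CDT1 after S phase begins. All 3 genes rose without DNAJ-PKAc C (14.3% of all genes tested did), and all 3 were below every WT library in C (29.5%). Cdc6 was at 3.62, 3.85 and 6.96 CPM across WT and 23.5, 23.0 and 0.731 CPM across DNAJ-PKAc. The value in C rests on 6 counts (95% exact Poisson interval 0.268 to 1.59 CPM, for counting error only), and A and B lay 31.8-fold above it, the largest such ratio among the 51 genes. In the full fit Cdc6 was at log2 1.71 (SE 0.96, edgeR adjusted p = 0.328), and on leaving out C at log2 2.27 (SE 0.30, edgeR adjusted p = 0.00322). Cdt1 was at 46.7, 50.6 and 44.3 CPM across WT, 77.2 and 75.8 CPM in the fusion libraries A and B and 21.7 CPM in C, a smaller step in A and B with C at 0.460 of the WT mean. Tested on 6 libraries, Cdt1 differed by log2 0.30 (SE 0.44, edgeR adjusted p = 0.705), which became log2 0.70 (SE 0.13, edgeR adjusted p = 0.0111) on leaving out C. Gmnn was at 15.5, 13.3 and 18.2 CPM across WT, 38.2 and 41.9 CPM in the fusion libraries A and B and 9.02 CPM in C, so both the loader and its inhibitor had the same order of libraries. Gmnn differed by log2 0.92 (SE 0.52, edgeR adjusted p = 0.326) with all 6 libraries and by log2 1.35 (SE 0.18, edgeR adjusted p = 0.00322) when C was left out. Skp2, which encodes a ubiquitin ligase subunit that marks CDT1 and the inhibitor CDKN1B for destruction, had another order of libraries: it was at 23.1, 20.7 and 27.4 CPM across WT and 55.0, 52.9 and 49.6 CPM across DNAJ-PKAc. C was near A and B and far above WT, and Skp2 rose with all 6 libraries (log2 1.15, SE 0.17, edgeR adjusted p = 0.0171), but not without WT A, B or C or DNAJ-PKAc A or B, where edgeR adjusted p was 0.0569 to 0.0966. Of the 11 tested genes of the list of cyclins, kinases and ligases that act on licensing, Skp2 was the 1 that rose with 6 libraries. Over all genes tested 1.37% did. Without DNAJ-PKAc C, 9 of the 11 rose, beside 14.3% of all genes. All 3 DNAJ-PKAc libraries lay above all 3 WT libraries for 4 of the 11, Skp2 included, against 15.8% of all genes tested.

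The MCM genes had the largest median difference between DNAJ-PKAc A and B and DNAJ-PKAc C of any role group, 11.4-fold. MCM2 to MCM7 form the ring that unwinds DNA, and MCM10 helps to activate it. All 7 rose without DNAJ-PKAc C (edgeR adjusted p from 0.000455 to 0.00565), and all 7 were below every WT library in C. Over all genes tested the shares were 14.3% and 29.5%. Mcm2 was at 58.2, 59.9 and 60.9 CPM across WT and 173, 161 and 54.7 CPM across DNAJ-PKAc. The WT libraries agreed within 1.05-fold and C lay just below them. Over 6 libraries the difference of Mcm2 was log2 1.12 (SE 0.40, edgeR adjusted p = 0.180), and leaving out C gave log2 1.49 (SE 0.12, edgeR adjusted p = 0.000831). Mcm4 was at 25.2, 26.3 and 29.9 CPM across WT, 98.7 and 107 CPM in the fusion libraries A and B and 20.2 CPM in C, the same order with C at 0.746 of the WT mean. The fit for Mcm4 gave log2 1.47 (SE 0.55, edgeR adjusted p = 0.194), and with C set aside log2 1.92 (SE 0.14, edgeR adjusted p = 0.000643). Mcm3 was at 36.2, 40.5 and 54.4 CPM across WT, 109 and 99.7 CPM in the fusion libraries A and B and 9.14 CPM in C. Here C was further below WT than A and B were above it, 4.78-fold lower than the WT mean against 2.39-fold higher. Mcm3 thus had a difference of log2 0.74 (SE 0.74, edgeR adjusted p = 0.580) in the full fit and of log2 1.26 (SE 0.19, edgeR adjusted p = 0.00565) in the fit that leaves out C. Mcm5, Mcm6, Mcm7 and Mcm10 were 3.64- to 5.08-fold above the WT mean in A and B and at 0.229 to 0.493 of it in C. The ring subunits are needed in equal number, and per kilobase their mRNA levels ran from 7.56 (Mcm4) to 23.2 RPKM (Mcm7) in WT, from 28.6 (Mcm4) to 94.1 (Mcm7) in DNAJ-PKAc A and B, and from 2.69 (Mcm6) to 16.2 (Mcm2) in C. Their levels thus spread over about the same range in A and B as in WT and over a wider one in C, with Mcm3, Mcm5 and Mcm6 lowest there. Mcm10, which is no ring subunit, was lower than all of them in each.

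**Figure D3:**
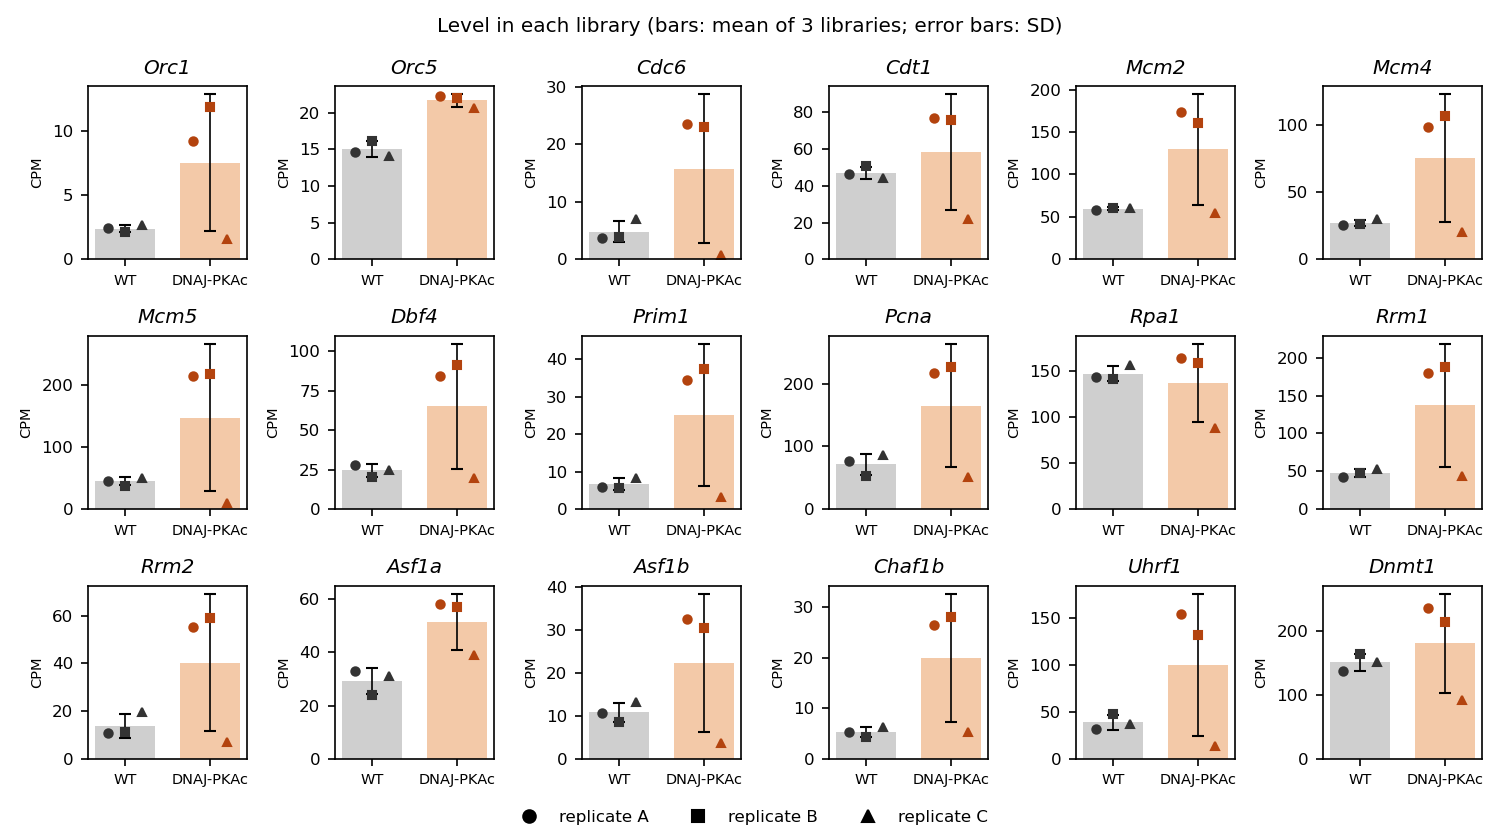
CPM of 18 genes in each library (points; circle, square and triangle for replicates A, B and C), with the mean of 3 libraries as bars and the SD as error bars. In DNAJ-PKAc the triangle lies far below the circle and square in most panels (Mcm5, 10.2 against 215 and 218 CPM), but not for Orc5, where the 3 values are 22.3, 22.1 and 20.7 CPM.

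Of the 7 genes that activate the helicase, 6 rose without DNAJ-PKAc C (14.3% of all genes tested did), and Gins4 did not pass. DBF4 is the regulatory subunit that switches on the kinase CDC7, which phosphorylates the MCM ring. Dbf4 was at 28.1, 20.2 and 25.1 CPM across WT and 84.4, 91.3 and 19.6 CPM across DNAJ-PKAc, with A and B 3.60-fold above the WT mean and C slightly below every WT library. In the full fit Dbf4 was at log2 1.41 (SE 0.52, edgeR adjusted p = 0.191), and on leaving out C at log2 1.85 (SE 0.17, edgeR adjusted p = 0.00109). Its partner Cdc7 had smaller ratios, at 1.87 times the WT mean in A and B and 0.468 times in C (edgeR adjusted p = 0.0171 without C). The 4 GINS genes encode a single complex with 1 copy of each subunit, yet their ratios differed. Gins1 was 3.47-fold above WT in A and B and at 0.251 of it in C, and Gins3 2.03-fold above and at 0.605. Gins4 was at 34.2, 26.3 and 36.5 CPM across WT, 34.6 and 40.1 CPM in the fusion libraries A and B and 26.0 CPM in C, and A overlapped the WT range. Tested on 6 libraries, Gins4 differed by log2 0.054 (SE 0.22, edgeR adjusted p = 0.900), which became log2 0.21 (SE 0.19, edgeR adjusted p = 0.434) on leaving out C. Gins2 was at 10.4, 6.30 and 10.8 CPM across WT, 23.8 and 22.1 CPM in the fusion libraries A and B and 8.41 CPM in C, with C inside the WT range, but 70.7% of its exonic bases are shared with Gse1 on the opposite strand, so its counts are uncertain. Gins2 differed by log2 0.98 (SE 0.42, edgeR adjusted p = 0.237) with all 6 libraries and by log2 1.32 (SE 0.25, edgeR adjusted p = 0.0118) when C was left out. Whether the GINS genes differ from each other was not tested. Cdc45, the third part of the active helicase, was 1.73-fold above WT in A and B and at 0.493 of it in C (edgeR adjusted p = 0.0354 without C).

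Among the 9 polymerase and primase genes, 8 rose without DNAJ-PKAc C (14.3% of all genes tested did), and Pold2 did not pass. Prim1 encodes the subunit of primase that makes the RNA primer, and it was at 5.92, 5.72 and 8.39 CPM across WT and 34.5, 37.5 and 3.29 CPM across DNAJ-PKAc. A and B were 5.40-fold above the WT mean, the largest such ratio of the 51 genes, and C was below every WT library. Over 6 libraries the difference of Prim1 was log2 1.91 (SE 0.76, edgeR adjusted p = 0.214), and leaving out C gave log2 2.43 (SE 0.21, edgeR adjusted p = 0.000877). Prim2, the large primase subunit gene, was at 30.2, 20.8 and 25.2 CPM across WT, 39.7 and 42.6 CPM in the fusion libraries A and B and 14.6 CPM in C, a ratio of 1.62 in A and B. The fit for Prim2 gave log2 0.35 (SE 0.39, edgeR adjusted p = 0.619), and with C set aside log2 0.70 (SE 0.19, edgeR adjusted p = 0.0364). Per kilobase, Prim1 was the scarcer of the pair in WT (4.22 against 12.9 RPKM) and close to Prim2 in A and B (22.8 against 20.8 RPKM). Pola1, the catalytic subunit gene of polymerase alpha, was at 38.0, 33.7 and 40.0 CPM across WT, 87.6 and 95.5 CPM in the fusion libraries A and B and 27.4 CPM in C, and A and B were 2.46-fold above WT. Pola1 thus had a difference of log2 0.91 (SE 0.43, edgeR adjusted p = 0.261) in the full fit and of log2 1.3 (SE 0.14, edgeR adjusted p = 0.00172) in the fit that leaves out C. Pola2, its accessory subunit gene, had a ratio of 2.26. Polymerase epsilon copies the leading strand, and its catalytic subunit gene Pole had the lowest level against WT in C of this group, at 0.197 of the WT mean, with A and B 2.39-fold above it. Pole2 followed at 0.393 and 2.88. Polymerase delta copies the lagging strand, and its genes Pold1, Pold3 and Pold2 were 2.38, 1.91 and 1.3 times the WT mean in A and B and 0.583, 0.621 and 0.955 times in C.

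PCNA is the ring that holds polymerases on DNA, and replication factor C opens it. Of these 6 genes 4 rose without DNAJ-PKAc C (Pcna, Rfc1, Rfc4 and Rfc5), beside 14.3% of all genes tested. Pcna was at 76.1, 52.0 and 85.4 CPM across WT and 217, 226 and 51.5 CPM across DNAJ-PKAc, so A and B were 3.11-fold above the WT mean and C just under the lowest WT library. In the full fit Pcna was at log2 1.21 (SE 0.52, edgeR adjusted p = 0.236), and on leaving out C at log2 1.64 (SE 0.21, edgeR adjusted p = 0.00328). Pcna was the most abundant of the 51 genes per kilobase in A and B, at 146 RPKM, and in WT, at 46.9 RPKM. Each loader gene had a smaller ratio in A and B than the clamp gene, a difference that was not tested. Rfc4 was at 10.2, 5.72 and 8.83 CPM across WT, 15.9 and 16.5 CPM in the fusion libraries A and B and 7.19 CPM in C, with C inside the WT range. Tested on 6 libraries, Rfc4 differed by log2 0.68 (SE 0.38, edgeR adjusted p = 0.327), which became log2 0.98 (SE 0.26, edgeR adjusted p = 0.0360) on leaving out C. Rfc2 was at 31.9, 25.3 and 37.3 CPM across WT, 45.4 and 40.4 CPM in the fusion libraries A and B and 21.8 CPM in C, a step of 1.36-fold in A and B. Rfc2 differed by log2 0.19 (SE 0.30, edgeR adjusted p = 0.733) with all 6 libraries and by log2 0.45 (SE 0.19, edgeR adjusted p = 0.132) when C was left out. Rfc1, the large subunit gene, and Rfc3 were 1.39- and 1.77-fold above WT in A and B, with C inside the WT range for both. Rfc5 was 2.29-fold above and at 0.452 of WT in C. Rfc2, Rfc4 and Rfc5 share 19.1%, 13.4% and 15.4% of their exonic bases with genes on the other strand, so their counts are uncertain.

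The 3 genes of RPA, which coats single-stranded DNA, did not share 1 pattern. Without DNAJ-PKAc C, 2 of them rose, Rpa2 and Rpa3, beside 14.3% of all genes tested. Rpa1, the large subunit gene, was at 143, 141 and 156 CPM across WT and 163, 159 and 88.0 CPM across DNAJ-PKAc. The mean of A and B was 1.10 times the WT mean and C was at 0.599 of it, and this was the only gene of the 51 with a fitted difference below 0 over 6 libraries. Over 6 libraries the difference of Rpa1 was log2 -0.10 (SE 0.25, edgeR adjusted p = 0.831), and leaving out C gave log2 0.13 (SE 0.13, edgeR adjusted p = 0.465). Rpa2 was at 7.23, 6.30 and 12.6 CPM across WT, 27.0 and 32.5 CPM in the fusion libraries A and B and 7.56 CPM in C, and A and B were clearly apart from WT while C lay inside it. The fit for Rpa2 gave log2 1.36 (SE 0.54, edgeR adjusted p = 0.214), and with C set aside log2 1.77 (SE 0.30, edgeR adjusted p = 0.00796). Rpa3, the smallest subunit, was at 30.9, 16.0 and 25.2 CPM across WT, 42.3 and 47.3 CPM in the fusion libraries A and B and 28.6 CPM in C. Its WT libraries spread 1.93-fold, with WT B lowest. Rpa3 thus had a difference of log2 0.71 (SE 0.30, edgeR adjusted p = 0.224) in the full fit and of log2 0.90 (SE 0.27, edgeR adjusted p = 0.0489) in the fit that leaves out C. Per kilobase, Rpa2 was the scarcest in WT, at 4.80 RPKM against 28.9 for Rpa1 and 35.9 for Rpa3.

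Lagging-strand fragments are trimmed by FEN1 and sealed by DNA ligase 1. Both genes rose without DNAJ-PKAc C (14.3% of all genes tested did) and were below every WT library in C (29.5%). Fen1 was at 24.0, 18.8 and 30.7 CPM across WT, 85.5 and 85.5 CPM in the fusion libraries A and B and 13.2 CPM in C. In the full fit Fen1 was at log2 1.33 (SE 0.63, edgeR adjusted p = 0.265), and on leaving out C at log2 1.80 (SE 0.21, edgeR adjusted p = 0.00215). Of its exonic bases 84.1% are shared with Tmem258 and Gm10143 on the opposite strand, so its counts are uncertain. Lig1 was at 16.2, 24.3 and 19.8 CPM across WT, 52.9 and 48.2 CPM in the fusion libraries A and B and 12.7 CPM in C, the same order of groups. Tested on 6 libraries, Lig1 differed by log2 0.92 (SE 0.49, edgeR adjusted p = 0.313), which became log2 1.33 (SE 0.19, edgeR adjusted p = 0.00460) on leaving out C. Ribonucleotide reductase makes the deoxynucleotides, with RRM1 as the large subunit and RRM2 as the S-phase small subunit. Rrm1 was at 42.7, 47.0 and 52.5 CPM across WT and 179, 188 and 43.3 CPM across DNAJ-PKAc. A and B were 3.88-fold above the WT mean, and C lay between the WT libraries. Rrm1 differed by log2 1.53 (SE 0.50, edgeR adjusted p = 0.158) with all 6 libraries and by log2 1.96 (SE 0.14, edgeR adjusted p = 0.000630) when C was left out. Rrm2 was at 10.6, 11.1 and 19.5 CPM across WT and 55.0, 58.8 and 7.19 CPM across DNAJ-PKAc, and C lay below WT. Over 6 libraries the difference of Rrm2 was log2 1.55 (SE 0.70, edgeR adjusted p = 0.249), and leaving out C gave log2 2.05 (SE 0.27, edgeR adjusted p = 0.00370).

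The histone chaperone genes included a pair of paralogs with different patterns. ASF1A and ASF1B both bind histones H3-H4 and pass them on, and ASF1B is known as the form of dividing cells. Asf1b (chr8:83955694-83970195), which lies between the fusion partners Dnajb1 and Prkaca on that chromosome, was at 10.7, 8.52 and 13.1 CPM across WT and 32.7, 30.5 and 3.78 CPM across DNAJ-PKAc. A and B were 2.92-fold above the WT mean, and C was at 0.350 of it. The fit for Asf1b gave log2 1.05 (SE 0.68, edgeR adjusted p = 0.390), and with C set aside log2 1.55 (SE 0.21, edgeR adjusted p = 0.00370). Asf1a (chr10:53596961-53609225) was at 33.2, 23.8 and 31.1 CPM across WT and 58.1, 56.9 and 39.1 CPM across DNAJ-PKAc, and all 3 DNAJ-PKAc libraries lay above all 3 WT libraries, C by the least. Asf1a thus had a difference of log2 0.81 (SE 0.22, edgeR adjusted p = 0.111) in the full fit and of log2 0.97 (SE 0.17, edgeR adjusted p = 0.00975) in the fit that leaves out C. Over 6 libraries it had the smallest adjusted p of the 51 genes and still missed the threshold. Of its exonic bases 58.9% are shared with Mcm9 on the opposite strand, so the count of Asf1a is uncertain, and Mcm9 itself was at 7.89, 12.6 and 10.3 CPM across WT and 10.5, 9.88 and 9.87 CPM across DNAJ-PKAc. Per kilobase, Asf1a was above Asf1b in every group: 13.3 against 6.04 RPKM in WT, 26.1 against 17.7 in A and B, and 17.8 against 2.11 in C. CAF-1 deposits histones behind the PCNA clamp. Chaf1b, its middle subunit gene, was at 5.37, 4.32 and 6.29 CPM across WT and 26.5, 28.0 and 5.36 CPM across DNAJ-PKAc. A and B were 5.12-fold above the WT mean and C was within the WT range. In the full fit Chaf1b was at log2 1.90 (SE 0.58, edgeR adjusted p = 0.135), and on leaving out C at log2 2.35 (SE 0.21, edgeR adjusted p = 0.000896). Chaf1a, the large subunit gene, had ratios of 2.93 in A and B and 0.562 in C, and 33.6% of its exonic bases are shared with Ubxn6 on the opposite strand, so its counts are uncertain.

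UHRF1 reads hemimethylated DNA behind the fork and brings in the maintenance methyltransferase DNMT1. Both genes rose without DNAJ-PKAc C, beside 14.3% of all genes tested. Uhrf1 was at 31.6, 47.4 and 37.2 CPM across WT and 154, 132 and 13.2 CPM across DNAJ-PKAc, and A and B were 3.69-fold above the WT mean. Tested on 6 libraries, Uhrf1 differed by log2 1.36 (SE 0.74, edgeR adjusted p = 0.318), which became log2 1.88 (SE 0.19, edgeR adjusted p = 0.00149) on leaving out C. Dnmt1 was at 137, 165 and 151 CPM across WT and 236, 214 and 91.9 CPM across DNAJ-PKAc, 1.49-fold above in A and B. Dnmt1 differed by log2 0.26 (SE 0.34, edgeR adjusted p = 0.673) with all 6 libraries and by log2 0.58 (SE 0.14, edgeR adjusted p = 0.0268) when C was left out. C was below every WT library for both (29.5% of all genes tested), at 0.340 and 0.608 of the WT mean. Per kilobase the enzyme was the more abundant in WT (25.7 against 10.8 RPKM), and the pair were nearly equal in A and B (38.3 against 39.8 RPKM).

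The size of the split was much the same with and without the promoter element, by the medians. DNAJ-PKAc A and B were above C by a median of 4.08-fold for the 17 genes with an E2F element in the window (range 0.978 to 31.8) and of 3.96-fold for the 26 without one (range 1.07 to 17.2). The extremes of the first set were Cdc6, with the widest ratio of all, and Orc3, with the only one below 1. Mcm10 and Prim1, at 17.2- and 11.0-fold, had no match in the window, which says only that these letters are not there. These values are a description with no test.

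Other genes of the same processes were counted from lists. Over all genes tested, 14.3% rose and 11.0% fell without DNAJ-PKAc C. Of 30 further replication and fork genes, 5 had an unadjusted edgeR p under 0.05 over 6 libraries, as did 2363 of all 10975 genes tested. After adjustment 0 of the 30 rose and 0 fell over 6 libraries, and 20 rose and 0 fell without DNAJ-PKAc C. Their fusion-library medians on the log2 scale, relative to WT, were 0.95 and 1.01 (A and B) and -0.32 (C). Pole3, a small subunit gene of polymerase epsilon, was at 12.7, 8.64 and 10.9 CPM across WT, 21.5 and 22.2 CPM in the fusion libraries A and B and 16.9 CPM in C, above WT in all 3 DNAJ-PKAc libraries (edgeR adjusted p = 0.0871). Of 8 genes of deoxynucleotide supply, 0 rose or fell over 6 libraries and 4 rose without C. Tyms, thymidylate synthase, was at 9.21, 5.83 and 9.60 CPM across WT, 30.8 and 34.3 CPM in the fusion libraries A and B and 6.09 CPM in C, with C inside the WT range. Of 17 other histone chaperone genes 0 rose or fell over 6 libraries, 7 rose without C, and the medians were smaller, at 0.53 and 0.43 (A and B) and -0.14 (C). Rbbp7, which encodes a histone-binding protein, was at 184, 181 and 208 CPM across WT, 322 and 311 CPM in the fusion libraries A and B and 218 CPM in C.

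The regulators and the cell division genes were set beside these. The shares of all genes tested were 14.3% higher and 11.0% lower without DNAJ-PKAc C. Having A and B above and C below every WT library held for 7.88% of them over 6 libraries. Of 19 RB, E2F and partner genes 0 rose or fell over 6 libraries, and 7 rose and 3 fell without DNAJ-PKAc C, with medians of 0.41 and 0.33 (A and B) and -0.13 (C). Mybl2, itself a gene of dividing cells, was at 3.40, 4.78 and 4.31 CPM across WT, 26.5 and 23.5 CPM in the fusion libraries A and B and 1.34 CPM in C. All 16 mitosis genes had A and B above every WT library and C below every one, with medians of 1.82 and 1.85 (A and B) and -1.34 (C). Mki67, the proliferation marker, was at 107, 155 and 126 CPM across WT, 468 and 474 CPM in the fusion libraries A and B and 36.2 CPM in C, the same order of libraries as the replication genes. Of the 16 mitosis genes 0 rose or fell by edgeR over 6 libraries, and 16 rose without C. Over 6 libraries 4 of them had an unadjusted edgeR p under 0.05, as did 2363 of all 10975 genes tested.

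The tested mesenchymal markers and 1 nuclear RNA, Malat1, were lower in DNAJ-PKAc A and B than in C. Of 8 tested fibroblast and mesenchymal markers, 7 were below every WT library in DNAJ-PKAc A and B, as were 3114 of all 10975 genes tested. The list summed to 16379.6 and 16141 CPM in A and B against 30060.0 CPM in C. Col3a1, a fibrillar collagen gene, was at 4219, 4776 and 5732 CPM across WT, 1000.1 and 952 CPM in the fusion libraries A and B and 4890.1 CPM in C. The exception was Acta2, smooth muscle actin, which was higher in all 3 DNAJ-PKAc libraries, at 10.5, 10.2 and 7.18 CPM across WT, 35.4 and 34.7 CPM in the fusion libraries A and B and 56.7 CPM in C. It rose over 6 libraries (edgeR adjusted p = 0.0102), though not without WT A, B or C (edgeR adjusted p from 0.0527 to 0.0569). The nuclear RNA Malat1 was at 1051 and 1151 CPM in A and B and 4796 CPM in C, with C inside the WT range. WT B, in which the replication genes were lowest of the WT libraries, had 10856 CPM of Malat1 against 2033 and 2505 in WT A and C, and 2.66% of its counts came from the ribosomal precursor Rn45s, against 0.912% to 1.05% in the others. The part of these in the differences between libraries was not tested.

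**Figure D4:**
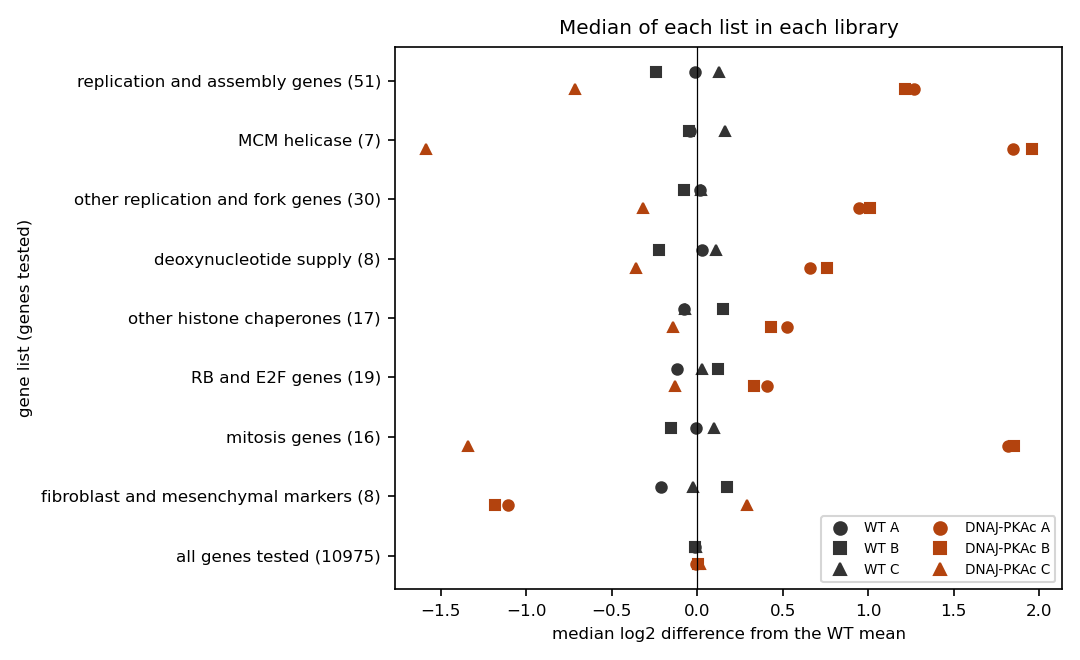
Median log2 difference from the WT mean of each gene list (rows) in each library (points; grey WT, orange DNAJ-PKAc; circle, square and triangle for A, B and C). For the replication genes, the MCM genes and the mitosis genes, DNAJ-PKAc C lies left of WT while A and B lie right of it, the mesenchymal markers have A and B to the left, and the median of all genes tested is near 0 in every library.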

How the data were processed

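Total RNA of 6 TIBx libraries, 3 WT and 3 DNAJ-PKAc, was sequenced, and the kit keeps strand, per the labels' protocols. The authors deposited expected counts by gene symbol, unnormalized, per the file headers. The submitters' processing notes list STAR 2.5.2b, RSEM 1.3.0 and mm10, without saying what each did. Annotation, filters and use of strand in counting are not given in the sources, so genes whose exons overlap another gene's are called uncertain.

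Expected counts were rounded, filtered with filterByExpr (minimum count 10), scaled by TMM and tested across all genes with edgeR 4.0.16 in R 4.3.3 (robust quasi-likelihood, group as the only term, 2-sided, Benjamini-Hochberg threshold 0.05). Differences are DNAJ-PKAc minus WT. The SE given with an edgeR difference is its absolute value divided by the square root of the quasi-likelihood F statistic. Log2 values per library use CPM plus 0.5. RPKM uses the longest GENCODE transcript. Gene positions and promoters are from RefSeq on GRCm38.p6. The test was tested on simulated counts in which no library was made to stand apart. That trial therefore cannot say how the test behaves with a library such as DNAJ-PKAc C. No 2 libraries of the same group agreed within sampling noise. Tried as alternatives were other factors (RLE, upper quartile), no filter, 1 CPM in 3 libraries, DESeq2 1.42.0, limma-voom (3.58.1), the replicate letter as a block and each library left out. A fit lacking both WT B and DNAJ-PKAc C was chosen after seeing the data.

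The member genes and lists were chosen with earlier results of these data known. In role groups of 4 or more genes the 2 of smallest and the 1 of largest adjusted p are given in every library, in smaller groups all are, with Asf1a and Asf1b as a pair. In other lists the 2 of smallest adjusted p could be named, and Mki67. A gene that this rule names is not reported here. Mcm9, Col3a1, Rrm2b, Rbl2 and Rb1 were chosen after their values were seen. Counting intervals cover counting error only.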

Additional observations from a re-analysis of the deposited data

How the results depend on the processing

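The count of genes that rose was 0 with all 6 libraries and 2 with DESeq2. Leaving out 1 library gave 0 to 43, and only leaving out DNAJ-PKAc C gave more than 0. Without WT B and DNAJ-PKAc C together it was 45, where 2633 of all 11012 genes tested rose and 2703 fell. No member gene fell under any of these settings. The median log2 difference stayed between 0.63 and 1.26 when 1 library was left out. Orc2 changed sign with RLE (-0.0099), upper-quartile (-0.048), DESeq2 (-0.010), limma-voom (-0.10) and the replicate block (-0.094), and ran from -0.21 to 0.38 with 1 library left out. Gins4 was at -0.022 with upper-quartile factors and ran from -0.11 to 0.21 with 1 library left out, Rfc2 from -0.016 to 0.45 and Rpa1 from -0.25 to 0.13. Rpa1 was at 0.059 without WT B and DNAJ-PKAc C. The cause of each sign change was not tested.

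With the replicate letter as a block, 0 genes rose, the median was 0.71, and Skp2 was no longer called (edgeR adjusted p = 0.0601). Deviations from the group means correlated between WT and DNAJ-PKAc at 0.217, -0.207 and 0.0229 for the letters A, B and C. DNAJ-PKAc C stands apart and dominates the deviations in its group, so these values cannot decide whether the letters pair the samples. With upper-quartile factors 114 of all genes were called higher and 295 lower, against 150 and 235. Over all genes the counts without DNAJ-PKAc C were 1587 and 1221. Depth limits Cdc6, Orc1 and Gins1 most, with 6, 13 and 11 counts in DNAJ-PKAc C.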

Other observations

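The genes named here were chosen after their values were seen. Rrm2b encodes the small subunit of ribonucleotide reductase that p53 induces and that resting cells use. It was at 30.0, 28.2 and 27.7 CPM across WT and 21.8, 23.8 and 45.8 CPM across DNAJ-PKAc: DNAJ-PKAc C was above every WT library and A and B were below every one, where Rrm2 had the reverse order. Its difference did not pass the test over 6 libraries (log2 0.087, edgeR adjusted p = 0.880) or without DNAJ-PKAc C (log2 -0.33, edgeR adjusted p = 0.141).

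Rbl2, which encodes p130, the RB relative of resting cells, was at 42.5, 48.8 and 47.3 CPM across WT and 30.0, 33.6 and 41.9 CPM across DNAJ-PKAc. It fell without DNAJ-PKAc C (log2 -0.54, edgeR adjusted p = 0.0379), and C lay just below the WT libraries. Tfdp2, an E2F partner gene, was at 37.1, 44.5 and 48.7 CPM across WT and 22.8, 25.3 and 39.0 CPM across DNAJ-PKAc. It also fell without C (log2 -0.85, edgeR adjusted p = 0.0142). Of the 19 RB, E2F and partner genes 3 fell without C, the other being Rb1 (log2 -0.68, edgeR adjusted p = 0.0280). Rb1 was at 31.4 CPM in C, inside the WT range of 28.6 to 35.1 CPM. Over all genes tested 11.0% fell without C.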
